A study of Homo sapiens with 4 samples.

Results

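Epithelial cells are held together by 3 kinds of junction, and 46 genes that build or control them were followed in Caco-2 cells stimulated with interferon gamma (IFNγ). The genes were taken from a list of symbols and matched by Ensembl identifier to 46 of the 37515 genes of a table of read counts. No measured value enters this rule, but the list was drawn up with earlier results of these data known. They comprised 16 strand proteins of the tight junction, 4 proteins of its plaque, 9 adherens junction genes, 6 desmosome genes, 6 polarity genes and 5 genes of actomyosin control. Caco-2 is a human colorectal adenocarcinoma line, with a mutated APC gene, that polarizes into enterocyte-like monolayers. Cells were kept for 15 days in transwells, inserts in which a monolayer grows on a porous membrane. Then 60 ng/ml IFNγ was given on the basal side for 3 h, and 2 libraries were made (IFNγ replicates 1 and 2). The other 2 libraries came from unstimulated wild-type cells at 0 h, which had medium, so IFNγ and the 3 h that passed cannot be told apart. The comparison asks which junction genes had changed at 3 h. Nothing stated that replicates were separate cultures, so p-values measure the spread between these libraries, which may be technical.

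Tight junctions seal the space between neighbouring cells near the apical surface. Their claudins either tighten the seal or form pores for ions and water, and a cytoplasmic plaque led by zonula occludens scaffolds ties them to actin. Adherens junctions hold cells together through cadherins and catenins, and desmosomes anchor the keratin filaments of one cell to those of the next. Polarity complexes place these junctions, and myosin, switched on by kinases such as myosin light chain kinase, puts them under tension. IFNγ is known to loosen the barrier of intestinal monolayers in culture.

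The libraries held 7171455 to 10365346 counts. Values are counts scaled to library size (CPM) after trimmed-mean normalization, and 1 CPM stood for 7.16 to 10.3 counts. The test was that of edgeR's quasi-likelihood model over 14820 genes, with a Benjamini-Hochberg adjusted p under 0.05 needed to call a gene higher or lower. Of 9 tested genes known to respond to IFNγ, 8 were higher, among them IRF1, which went from 19.3 and 20.2 CPM at 0 h to 1201 and 1085 CPM. The enterocyte marker VIL1, the actin bundler of the brush border, stood at 1576 to 1817 CPM in the 4 libraries. Of 9 enterocyte markers, KRT8, KRT18 and CDX2 were higher, and the brush border disaccharidase SI was lower. SI had 419 and 439 CPM against 258 and 134 CPM (log2 fold change -1.13 ± 0.27, adjusted p = 0.0256). Its call was lost with another tool, DESeq2 (adjusted p = 0.0536). It was also lost after removal of a trend with GC content and transcript length (-0.60, adjusted p = 0.0942). Of 15 fibroblast, leukocyte and endothelial markers with a row, COL1A1 alone exceeded 10 CPM, at 89.4 to 179 CPM with overlapping groups.

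To show the DNA at the starts of these genes, 300-base promoter windows were read from RefSeq (build GRCh38.p14), each holding the 250 bases before an annotated transcript start and its first 50 bases. They are shown for CLDN2, the member with the largest rise, for 2 further claudins that rose, CLDN4 and CLDN7, and for ROCK1, the member with the largest fall. Capitals mark matches, on either strand, to 4 motifs. These were the GAS motif, named for interferon-gamma-activated sites (TTCNNNGAA), the ISRE of interferon regulatory factors (GAAA, any 2 bases, GAAA), the E-box bound by Snail and ZEB repressors (CACCTG) and the CDX motif (TTTATNNC). No pair of matches in these windows shares a base.
CLDN2, first start, chrX:106899914-106900213, plus strand: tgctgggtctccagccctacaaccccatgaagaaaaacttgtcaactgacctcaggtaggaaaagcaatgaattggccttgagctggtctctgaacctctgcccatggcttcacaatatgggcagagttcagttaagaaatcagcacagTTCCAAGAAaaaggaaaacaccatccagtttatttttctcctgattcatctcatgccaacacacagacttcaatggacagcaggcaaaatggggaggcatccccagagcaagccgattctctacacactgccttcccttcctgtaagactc
CLDN2, second start, chrX:106918110-106918409, plus strand: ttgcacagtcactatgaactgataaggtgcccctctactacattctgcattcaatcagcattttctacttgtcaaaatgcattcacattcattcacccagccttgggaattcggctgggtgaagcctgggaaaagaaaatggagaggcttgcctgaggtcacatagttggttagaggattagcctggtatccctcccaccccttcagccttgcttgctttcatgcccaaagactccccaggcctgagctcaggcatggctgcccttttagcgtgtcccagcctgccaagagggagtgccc
CLDN4, chr7:73830746-73831045, plus strand: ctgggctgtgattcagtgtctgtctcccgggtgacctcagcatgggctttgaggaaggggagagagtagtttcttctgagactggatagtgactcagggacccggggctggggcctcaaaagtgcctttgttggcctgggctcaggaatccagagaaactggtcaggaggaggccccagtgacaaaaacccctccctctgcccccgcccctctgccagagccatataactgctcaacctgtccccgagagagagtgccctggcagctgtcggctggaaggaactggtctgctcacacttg
CLDN7, first start, chr17:7262429-7262728, minus strand: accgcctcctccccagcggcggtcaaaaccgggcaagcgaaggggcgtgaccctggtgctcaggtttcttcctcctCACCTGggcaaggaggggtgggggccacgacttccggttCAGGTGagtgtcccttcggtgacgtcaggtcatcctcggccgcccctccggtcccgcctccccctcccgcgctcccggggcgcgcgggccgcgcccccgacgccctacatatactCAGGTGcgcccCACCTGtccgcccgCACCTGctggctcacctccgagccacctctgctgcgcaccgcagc
CLDN7, second start, chr17:7263164-7263463, minus strand: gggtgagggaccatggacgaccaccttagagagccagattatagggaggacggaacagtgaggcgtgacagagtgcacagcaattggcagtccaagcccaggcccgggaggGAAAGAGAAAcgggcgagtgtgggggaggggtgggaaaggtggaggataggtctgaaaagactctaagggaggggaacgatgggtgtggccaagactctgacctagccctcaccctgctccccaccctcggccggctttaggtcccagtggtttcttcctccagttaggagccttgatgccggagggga
ROCK1, chr18:21111764-21112063, minus strand: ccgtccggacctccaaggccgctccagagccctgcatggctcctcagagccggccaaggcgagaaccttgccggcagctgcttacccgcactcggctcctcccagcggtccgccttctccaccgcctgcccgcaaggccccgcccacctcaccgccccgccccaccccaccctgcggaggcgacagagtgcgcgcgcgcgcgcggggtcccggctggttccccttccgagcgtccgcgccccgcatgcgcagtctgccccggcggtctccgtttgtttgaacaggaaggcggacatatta

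The first CLDN2 window held a GAS match, TTCCAAGAA, whose first base lies 101 bases before the start. The window of IRF1 held the GAS match TTCCCCGAA at 124 bases. A GAS match was present in 7.66% of all 35116 windows of the table and in 5 of the 48 windows of members, or 10.4%. These 48 windows came from 32 of the 46 genes. The members with a GAS match were CLDN2, CLDN12, CTNNA1, DSC2 and MYLK, of which CLDN2 alone passed the test described below. The second CLDN7 window held the ISRE match GAAAGAGAAA, a motif present in 3.57% of all windows and in 2 windows of members (CLDN7 and CTNNA1). The first CLDN7 window held 5 E-box matches, 4 before the start and 1 after it. E-box matches occurred in 17 of the 48 windows of members, or 35.4%, against 20.6% of all windows. By gene, 15 of the 32 members in the table had a match. No share by gene was computed over all genes, so these counts by gene have no background. Whether a match goes with the direction of change was not tested. Of 8 members that rose and were in the table, 5 had an E-box match (CLDN3, CLDN7, TJP1, DSP and JUP). Of 4 that fell, 1 did (PATJ), and the rest, such as OCLN and DSG2, were not called. CDX matches occurred in 3 windows of members (CTNNA1, RHOA and ROCK2), or 6.25%, against 11.8% of all windows. The CLDN4 and ROCK1 windows held no match to these motifs. A match describes the letters and is neither a bound site nor a cause.

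Of the 46 genes, 43 were abundant enough to be tested, and 16 passed, 11 higher and 5 lower. In the background of all tested genes 20.0% passed, 9.02% higher and 11% lower, against 25.6% and 11.6% of the tested members. The median log2 fold change was 0.17 over the members and -0.01 over all tested genes. In 23 members both stimulated libraries lay above both unstimulated ones, and in 12 below, where the shares of all genes were 31.6% and 30.8%. Past a 2-fold change, only CLDN2 was higher and only ROCK1 lower, where 2.88% and 4.40% of all genes were. The members not tested were CLDN6, CLDN23 and ILDR1, claudin and tricellular junction genes with at most 8 counts in any library. The calls fell unevenly over the classes, as the plot of fold changes by class shows. They comprised 7 higher and 1 lower among 13 strand proteins, 1 higher among 4 plaque proteins, 3 higher among 6 desmosome genes, 3 lower among 6 polarity genes and 1 lower among 5 actomyosin genes. No adherens junction gene of 9 passed edgeR's test or DESeq2, and 2 had an unadjusted p under 0.05 in edgeR's test. Whether the classes differ from each other was not tested. The count of higher members was 6 without IFNγ replicate 2 and 7 without unstimulated replicate 1, and that of lower members was 2 without unstimulated replicate 2 and 3 without unstimulated replicate 1. The matching counts over all tested genes also fell in these fits. After removal of a trend with GC content and transcript length, 11 members were higher and 1 was lower.

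**Figure D1:**
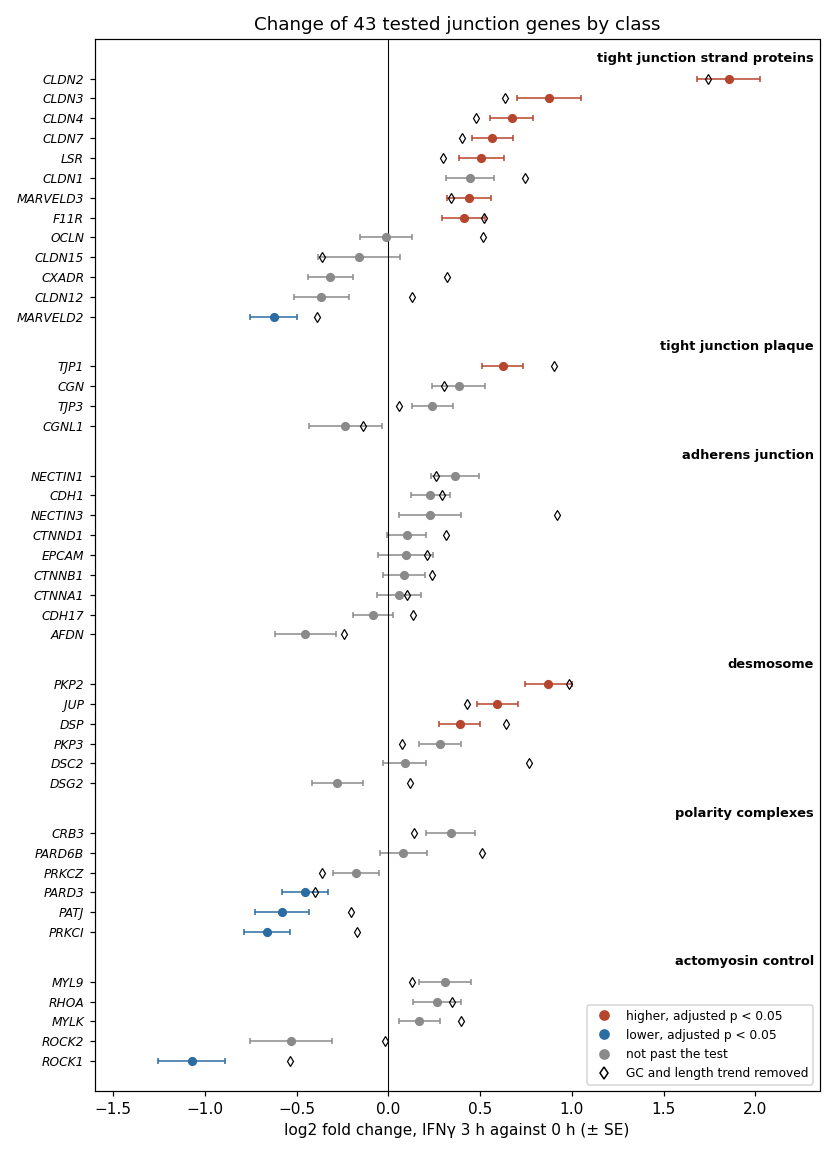
Log2 fold change (IFNγ 3 h against 0 h, edgeR, bars ± SE, n = 2 against 2) of the 43 tested junction genes by class, coloured by whether adjusted p was under 0.05; open diamonds give the fold change after removal of the GC and length trend. CLDN2 lies farthest to the right at 1.86 and ROCK1 farthest to the left at -1.07.

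Among claudins, the pore-forming CLDN2, which lets cations and water through, changed most. It was counted at 30.2 and 41.6 CPM at 0 h and at 124 and 135 CPM after IFNγ. Both stimulated libraries stood far above both unstimulated ones, a 3.62-fold rise (log2 fold change 1.86 ± 0.17, SE, adjusted p = 0.00127). The call held in each of 14 fits that varied the scaling, the filter, the tool, the model and the libraries used. CLDN2 overlaps the antisense gene RIPPLY1, and whether reads of RIPPLY1 enter its count is unknown, as the handling of strand is not given.

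CLDN3, CLDN4 and CLDN7, claudins mostly counted among the sealing kind, rose by less. CLDN4 went from 198 and 216 CPM to 309 and 349.6 CPM (log2 fold change 0.67 ± 0.12, adjusted p = 0.00918). CLDN7 went from 131 and 139 CPM to 195 and 205 CPM (0.57 ± 0.11, adjusted p = 0.0126). Neither pair of groups overlapped, and replicates of each gene lay close to each other. CLDN3, the least abundant of these, went from 14.0 and 13.9 CPM to 23.0 and 28.4 CPM (0.87 ± 0.17, adjusted p = 0.0137). Its call was lost without IFNγ replicate 2 (0.69, adjusted p = 0.0522), and that of CLDN7 without unstimulated replicate 1 (0.53, adjusted p = 0.0620).

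CLDN1, another sealing claudin, narrowly missed the threshold at 112 and 124 CPM against 148 and 174 CPM (log2 fold change 0.45 ± 0.13, adjusted p = 0.0500116). It passed in DESeq2 (adjusted p = 0.0405) and without IFNγ replicate 1 (0.55, adjusted p = 0.0184). CLDN12 had 44.3 and 54.8 CPM at 0 h and 39.0 and 37.7 CPM after IFNγ, and CLDN15, another pore-forming claudin, had 8.83 to 11.98 CPM in the 4 libraries with overlapping groups. Neither of these passed the test.

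The claudins can be compared with each other per kilobase of the canonical transcript. Shares were taken of the summed level per kilobase of the 7 tested claudins among the members. The sum leaves out CLDN19 and CLDN16, which were tested outside the members. CLDN19 had 15.0 CPM per kilobase at 0 h and 14.2 after IFNγ, and CLDN16 had 1.13 and 0.664. CLDN2 took 3.67% and 4.67% of the sum at 0 h and 9.70% and 9.59% after IFNγ. The shares of CLDN12 (from 4.52% and 5.15% to 2.57% and 2.24%), CLDN15 (mean 2.96% to 1.70%) and CLDN1 (mean 11.8% to 10.3%) were smaller after IFNγ, and a share of a sum also shrinks when other claudins rise. CLDN4 remained the most abundant claudin at 42.2% ± 0.238 before and 42.9% ± 0.715 after (SD, n = 2), followed by CLDN7 at 30.2% ± 0.526 and 28.6% ± 1.01. These shares are a description and carry no test.

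At tricellular contacts, where 3 cells meet, LSR (angulin-1) recruits tricellulin, the product of MARVELD2, and the transcripts of these partners moved in opposite directions. LSR rose from 194 and 221 CPM to 279 and 311 CPM (log2 fold change 0.51 ± 0.12, adjusted p = 0.0272). MARVELD2 fell from 60.8 and 61.6 CPM to 37.5 and 41.9 CPM (-0.63 ± 0.13, adjusted p = 0.0158). In both genes the groups stood clear of each other. LSR lost its call without unstimulated replicate 1 (0.42, adjusted p = 0.128) or IFNγ replicate 2 (0.41, adjusted p = 0.0972), and MARVELD2 lost it without unstimulated replicate 2 (-0.62, adjusted p = 0.0541).

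MARVELD3, a further MARVEL-domain protein of the junction, rose from 74.7 and 69.2 CPM to 94.4 and 101 CPM (log2 fold change 0.44 ± 0.12, adjusted p = 0.0400), and DESeq2 gave an adjusted p of 0.0561. F11R, the adhesion molecule JAM-A, rose from 183 and 210.2 CPM to 258 and 264 CPM (0.41 ± 0.12, adjusted p = 0.0480). Both were separated between groups but stood near the threshold. With each library left out in turn, F11R lost its call in each fit (0.31 to 0.51, adjusted p 0.0583 to 0.229), and MARVELD3 lost it in 3 of the 4 (0.37 to 0.50, adjusted p 0.0916 to 0.170).

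OCLN, the gene of occludin, showed no separation, with 80.9 and 91.1 CPM at 0 h and 76.7 and 93.6 CPM after IFNγ (log2 fold change -0.01 ± 0.14, adjusted p = 0.954). CXADR, an adhesion molecule of the tight junction that also serves as a virus receptor, had 125 and 139 CPM against 101 and 111 CPM and did not pass (-0.32 ± 0.12, adjusted p = 0.108). Partial copies of OCLN, CXADR, MYLK and ROCK1 lie elsewhere in the genome, so their counts are uncertain. The same holds where exons of 2 genes overlap, as for CLDN7 with ELP5, MARVELD3 with PHLPP2, TJP3 with APBA3, CRB3 with DENND1C and RHOA with TCTA.

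In the plaque, TJP1 (ZO-1), the scaffold that binds claudins and actin, rose from 132 and 124 CPM to 204 and 191 CPM (log2 fold change 0.62 ± 0.11, adjusted p = 0.00974), and it passed in each of the 14 fits. The other plaque genes did not pass. CGN, which encodes cingulin, had the widest spread at 0 h, with 507 and 388 CPM against 602 and 567 CPM (0.38 ± 0.14, adjusted p = 0.105). Without unstimulated replicate 1 it was called at 0.59 (adjusted p = 0.0363), and without unstimulated replicate 2 it was 0.20. TJP3 (ZO-3) had a log2 fold change of 0.24 ± 0.11, and CGNL1 (paracingulin), the least abundant tested member per kilobase, of -0.23 ± 0.20.

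**Figure D2:**
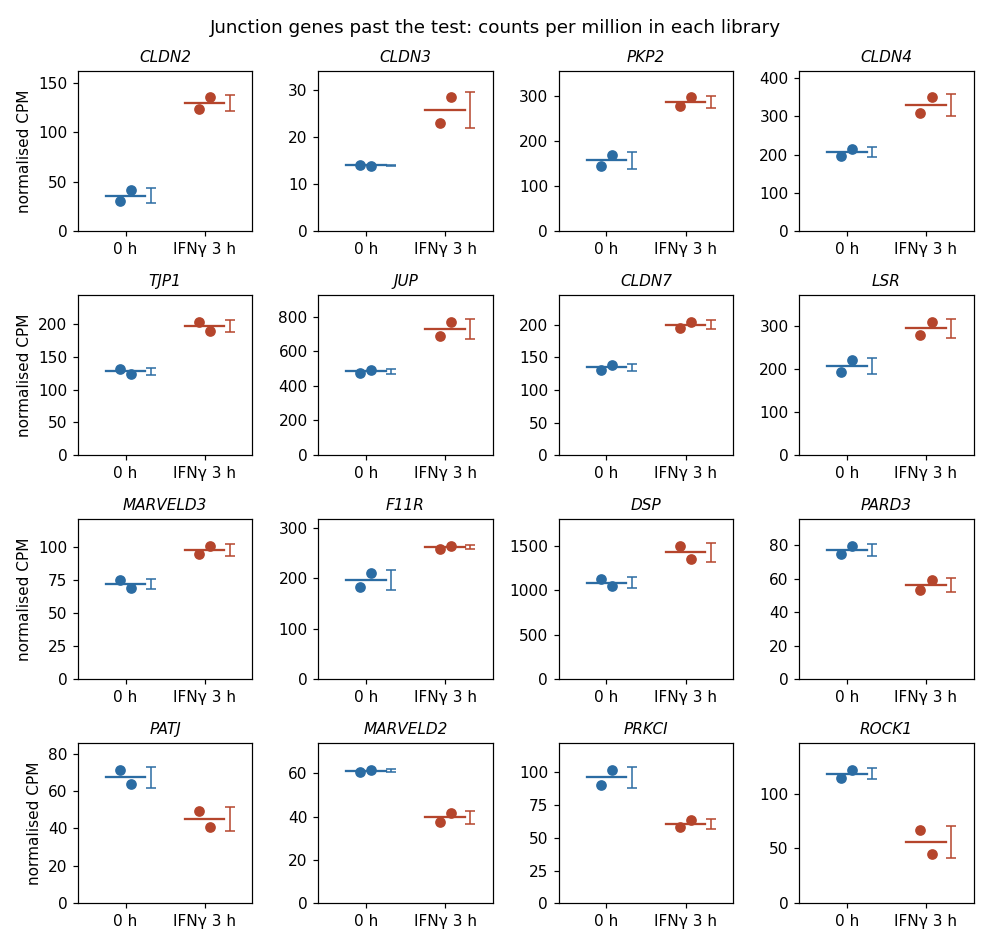
Normalised CPM (axes from 0) of the 16 junction genes past the test in each library, with points for libraries, horizontal lines for group means and bars beside them for ± SD (n = 2). In each panel both IFNγ libraries lie on one side of both 0 h libraries, with 11 genes higher and 5 lower.

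The 9 adherens junction genes, none of them past edgeR's test in the 4 libraries, had log2 fold changes between -0.45 and 0.37. CDH1 (E-cadherin), the core adhesion molecule of epithelia, had 1242 and 1329 CPM at 0 h and 1454 and 1558 CPM after IFNγ (0.23 ± 0.11, adjusted p = 0.172). CTNNB1, which encodes beta-catenin, overlapped between groups at 165 and 182 CPM against 179 and 189.8 CPM (0.09 ± 0.11). The genes nearest to a call were AFDN (afadin, the actin linker of nectins) at -0.45 ± 0.17 (adjusted p = 0.0974) and NECTIN1, a nectin adhesion receptor, at 0.37 ± 0.13 (adjusted p = 0.0904). AFDN was called at -0.69 (adjusted p = 0.00981) without IFNγ replicate 1, and was -0.29 without IFNγ replicate 2. CTNNA1 and CTNND1, the alpha- and p120-catenins, the intestinal cadherin CDH17, the adhesion molecule EPCAM and the nectin NECTIN3 lay between -0.08 and 0.23.

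Per kilobase, adherens junction genes were also the most abundant members. CDH17 ranked first at 0 h with 519 ± 47.9 CPM per kilobase, followed by EPCAM at 462 ± 60.8, CDH1 at 267 ± 12.8 and CTNNA1 at 246 ± 21.6 (SD, n = 2). The SD ranges of CDH17 and EPCAM overlapped, as did those of CDH1 and CTNNA1. The genes of each pair were measured in the same libraries, so these ranges do not decide whether they differ, which was not tested. After IFNγ, EPCAM ranked first at 493 ± 79.9 and CDH17 second at 490 ± 6.54. CLDN2 moved from rank 37 of 43 at 12.1 ± 2.73 CPM per kilobase to rank 19 at 43.6 ± 2.73. ROCK1 moved from rank 36 to rank 41.

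**Figure D3:**
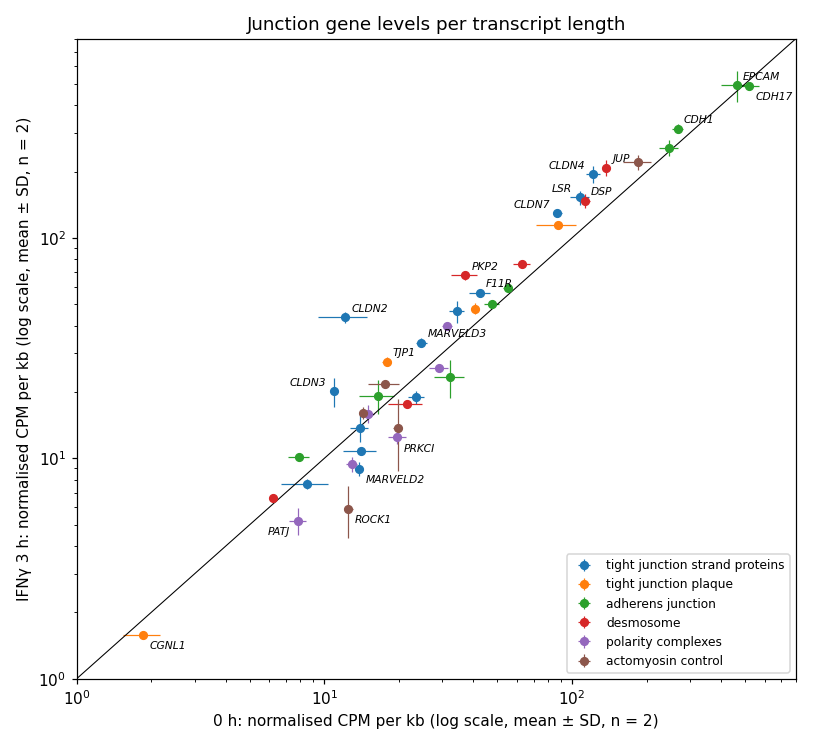
Mean normalised CPM per kilobase of the canonical transcript at 0 h (x axis) and after 3 h of IFNγ (y axis), both on log scales, with bars for ± SD (n = 2) and colours for class; the line marks equal levels. CLDN2 stands farthest above the line, at 12.1 against 43.6, and ROCK1 farthest below it.

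In the desmosome, 3 of the 4 plaque genes rose, while neither desmosomal cadherin passed. PKP2, plakophilin 2, which links desmosomal cadherins to desmoplakin, had 143 and 169.7 CPM at 0 h and 276 and 296 CPM after IFNγ. This was a 1.83-fold rise with both stimulated libraries well above the others (log2 fold change 0.87 ± 0.13, adjusted p = 0.00464), and it passed in each of the 14 fits. JUP (plakoglobin), which serves desmosomes and adherens junctions, rose from 473 and 493 CPM to 687 and 771 CPM (0.59 ± 0.11, adjusted p = 0.0113).

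DSP (desmoplakin), the tether to keratin, rose from 1131 and 1049 CPM to 1504 and 1352 CPM (log2 fold change 0.39 ± 0.11, adjusted p = 0.0478). Its groups did not overlap, but the call was lost with any one library left out (0.30 to 0.45, adjusted p 0.0736 to 0.183). PKP3, plakophilin 3, had 0.28 ± 0.11 (adjusted p = 0.123). The cadherins DSG2 and DSC2 had -0.28 ± 0.14 and 0.09 ± 0.12.

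Of the polarity genes, the partners PRKCI and PARD3 and the scaffold PATJ were lower. PRKCI, the atypical protein kinase C iota, fell from 90.7 and 102 CPM to 58.2 and 63.4 CPM (log2 fold change -0.66 ± 0.13, adjusted p = 0.0119). PARD3, the scaffold that binds it at the junction, fell from 74.5 and 79.7 CPM to 53.1 and 59.4 CPM (-0.46 ± 0.13, adjusted p = 0.0431). PATJ, of the Crumbs complex, fell from 71.3 and 63.5 CPM to 49.4 and 40.7 CPM (-0.58 ± 0.15, adjusted p = 0.0327).

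The groups of these 3 genes did not overlap. With each library left out in turn, log2 fold changes ran from -0.75 to -0.58 for PRKCI, -0.74 to -0.47 for PATJ and -0.56 to -0.39 for PARD3. PRKCI lost its call without unstimulated replicate 2 (adjusted p = 0.0524), PATJ without unstimulated replicate 1 or IFNγ replicate 2 (adjusted p = 0.129 and 0.108), and PARD3 in each fit but the one without IFNγ replicate 2 (adjusted p 0.0890 to 0.148) and in DESeq2 (0.0571). PRKCZ, the zeta kinase (-0.18 ± 0.13), the adaptor PARD6B (0.08 ± 0.13) and CRB3, the epithelial Crumbs protein (0.34 ± 0.13), did not pass.

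Among the genes that tension the junction, ROCK1, a kinase that raises myosin phosphorylation, fell most of all members. It had 115 and 122 CPM at 0 h and 66.4 and 45.4 CPM after IFNγ, so both stimulated libraries were low and IFNγ replicate 2 lowest. The fall was 2.10-fold (log2 fold change -1.07 ± 0.18, adjusted p = 0.00797) and passed in each of the 14 fits. It shrank to -0.54 (adjusted p = 0.0344) once the GC and length trend was removed.

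ROCK2, its close relative, was nearly level in one stimulated library and low in the other, with 161 and 171 CPM against 143 and 85.0 CPM (log2 fold change -0.53 ± 0.22, adjusted p = 0.137). Without IFNγ replicate 1 its log2 fold change was -0.97 (adjusted p = 0.000525), and without IFNγ replicate 2 it was -0.23. The myosin light chain kinase MYLK had 146 and 144 CPM against 170.1 and 155 CPM (0.17 ± 0.11, adjusted p = 0.326). RHOA, the GTPase upstream of the kinases (0.26 ± 0.13), and MYL9, a myosin light chain (0.31 ± 0.14), did not pass either.

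The direction of change moved with the GC content of the transcript, in the members and in all genes. The Spearman correlation of log2 fold change with GC content was 0.540 over 43 members and 0.436 over 14518 genes with a GC value, which share the same 4 libraries. Median GC content was 52.4% in the members that rose, 43.5% in those that fell and 46.1% in the rest. In the lowest GC range (26.5% to 44.1%), where 3.08% of all genes were higher and 24.5% lower, 4 of 14 members were lower and 0 higher in edgeR's test. In the highest range (53.8% to 76.0%), where 14.4% of genes were higher and 1.84% lower, 5 of 13 members were higher and 0 lower. The part of base composition in these calls was not tested beyond the removal that follows.

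After a GC and length trend was removed from each library, 1527 of 14518 genes were higher and 842 lower, against 1337 higher and 1626 lower of 14820 without the removal. The median of the members was then 0.29, beside 0.05 over all genes. Of the 16 members called, 8 still passed, which were CLDN2, CLDN3, CLDN4, TJP1, F11R, DSP, PKP2 and ROCK1. JUP (0.43, adjusted p = 0.0683), CLDN7 (0.40, adjusted p = 0.0501), LSR (0.30, adjusted p = 0.190) and MARVELD3 (0.34, adjusted p = 0.0919) did not. Neither did MARVELD2 (-0.39, adjusted p = 0.0887), PARD3 (-0.40, adjusted p = 0.0969), PATJ (-0.20, adjusted p = 0.326) and PRKCI (-0.17, adjusted p = 0.434). CLDN1, NECTIN3, DSC2 and PARD6B were called higher after the removal and not without it, at log2 fold changes of 0.75, 0.92, 0.77 and 0.51. None of the 16 called members changed direction in any of the 14 fits.

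**Figure D4:**
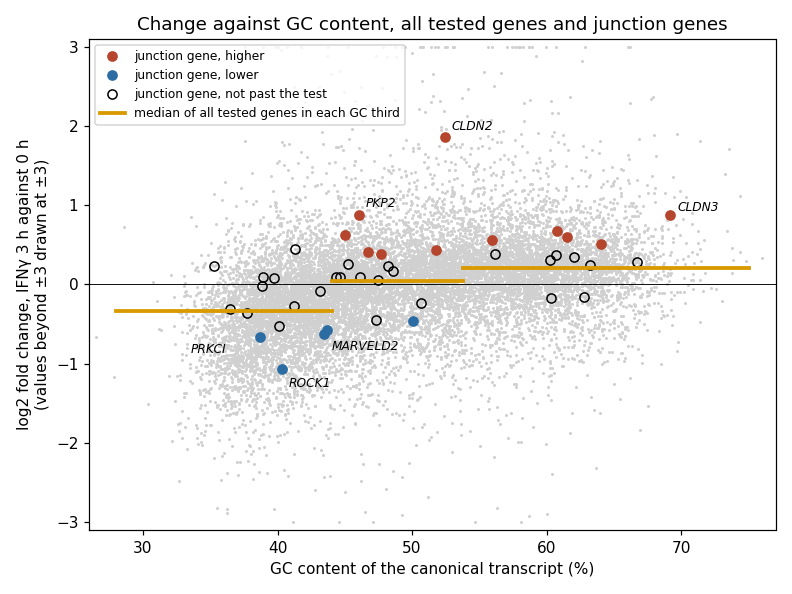
Log2 fold change (IFNγ 3 h against 0 h) against GC content of the canonical transcript in percent for all tested genes (grey) and junction genes (colours and open circles), with lines for the median of all genes in each GC range. The gene medians run from -0.34 in the lowest range to 0.20 in the highest, and the members that fell lie mostly to the left.

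Beyond the 46 genes, 135 further genes of junctions, polarity, actomyosin and matrix adhesion had a row. Of these, 102 were tested, and 17 (16.7%) were higher and 14 (13.7%) lower, with a median log2 fold change of 0.06. Over all tested genes, 9.02% were higher and 11% lower. Whether the 102 genes, or any list among them, differ from all tested genes was not tested. Among adherens junction genes outside the members, 4 of 10 rose, which were NECTIN2 (0.73), LMO7 (0.59), ZYX (0.94) and AJUBA (0.71), the last 3 encoding actin-linked LIM-domain proteins. KRT8 and KRT18, the keratin pair of simple epithelia, rose by 0.84 ± 0.13 and 0.88 ± 0.15, and PPL (periplakin) by 0.50 ± 0.13. KRT8 and KRT18 overlap on opposite strands. Whether reads of one enter the count of the other is unknown, as the handling of strand is not given. KRT19, another simple-epithelial keratin, fell (-0.50 ± 0.13, adjusted p = 0.0322), as did the plakophilin PKP4 (-0.83 ± 0.11, adjusted p = 0.00345). Of the fits with 1 library left out, LMO7 and PPL passed in 2 of 4 and KRT19 in 1 of 4, and PPL narrowly lost its call after removal of the GC and length trend (adjusted p = 0.0511).

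Among polarity genes outside the members, 3 of 16 fell. DLG1, the Scribble-complex scaffold, had 130.5 and 134 CPM at 0 h and 65.8 and 58.5 CPM after IFNγ, a 2.12-fold fall (adjusted p = 0.00212). The others were LIN7A (-0.96) and PARD3B (-0.57). After removal of the GC and length trend DLG1 was -0.56 (adjusted p = 0.0136), while LIN7A (-0.33, adjusted p = 0.265) and PARD3B (-0.36, adjusted p = 0.131) lost their calls. The largest fall of the tight junction list was that of AMOTL2, an angiomotin that binds junctional scaffolds and YAP, from 606 and 563 CPM to 177 and 222 CPM (-1.55 ± 0.14, adjusted p = 0.00123).

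RHOB, a small GTPase induced early by many stimuli, rose 2.91-fold, from 21.0 and 22.4 CPM to 54.8 and 71.8 CPM (adjusted p = 0.00214). PPP1R12A and PPP1CB, subunits of myosin phosphatase, whose activity ROCK1 restrains, fell by 0.89 and 0.75 on the log2 scale, to -0.37 and -0.09 after removal of the GC and length trend, where neither passed. Of 12 tested junction transcription regulators, 3 were higher and 2 lower. CDX2, the intestinal homeobox factor, rose 2.30-fold, from 178 and 177 CPM to 409 and 406 CPM (adjusted p = 0.00117). OVOL1 (0.83 ± 0.15, adjusted p = 0.0103) and ESRP2 (0.46 ± 0.12, adjusted p = 0.0316) rose too, and ESRP1 fell (-0.62 ± 0.11, adjusted p = 0.00964). After removal of the GC and length trend, OVOL1 still passed (0.66, adjusted p = 0.0144). ESRP2 (0.31, adjusted p = 0.112) and ESRP1 (-0.37, adjusted p = 0.0660) then lost their calls. GRHL2, a grainyhead factor of epithelial junctions, was lower by the test (-0.58 ± 0.14, adjusted p = 0.0269), a call lost with any one library left out and in DESeq2 (adjusted p = 0.0617). The connexin GJB2 passed on few reads, with 6 and 4 counts at 0 h and 19 and 26 counts after IFNγ, and in 1 of the 4 fits with a library left out.

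**Figure D5:**
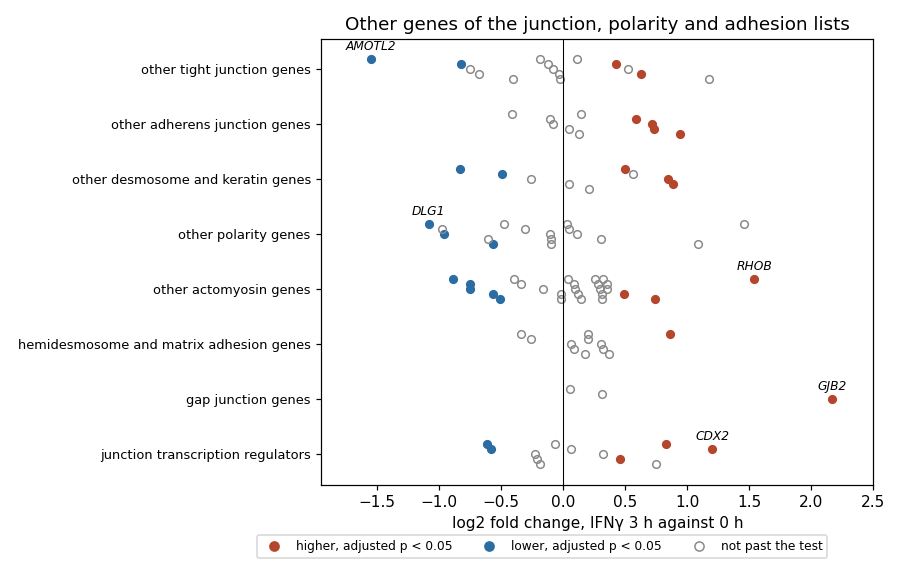
Log2 fold change (IFNγ 3 h against 0 h, edgeR) of the 102 tested genes outside the 46 members, by list, coloured by whether adjusted p was under 0.05 and named where the change also passed 2-fold. Among called genes RHOB, CDX2 and GJB2 lie above 1, and AMOTL2 and DLG1 below -1.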

How the data were processed

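RNA was isolated by the authors with the mirVana kit, and libraries were made with the TruSeq kit from 1 ug of RNA. The deposited values are raw counts of reads per Ensembl gene, with replicates not pooled. Per the submitters' processing notes, HISAT 0.5.1 and HTSeq 0.6.1p1 were used, with no role stated, and genome build, annotation and handling of strand are not given in the sources used here. Of 37515 identifiers 96.5% were paired with a symbol. Genes were kept by edgeR's default filter and tested with the quasi-likelihood test of edgeR 4.0.16 (R 4.3.3) with TMM scaling and no block, and SE is the log2 fold change over the square root of F. Transcript length and GC content came from GENCODE 44 mapped to GRCh37. The alternatives were other scalings and filters, DESeq2 1.42.0, a block, loess removal of the GC and length trend (span 0.3), and each library left out. Each member is named. The members and lists were chosen with earlier results of these data known.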

Additional observations from a re-analysis of the deposited data

How the results depend on the processing

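Precision was limited by 2 libraries per condition. The counts of junction genes, 11 higher and 5 lower, stayed within 1.5 times under the other scalings and filters and DESeq2. With the trend of GC content and length removed, 1 junction gene and 7 of the other listed genes were lower (14 without the removal), and the median of the members was 0.29. A 2-fold threshold left 1 higher and 1 lower, and 3 and 2 of the other genes. Leaving out each library in turn gave 6 to 10 higher and 2 to 6 lower members, 8 to 15 higher and 9 to 12 lower other genes, and medians of 0.11 to 0.20. The lone library of a condition was then assumed to vary like the other group. In each of these fits, the higher and lower counts over all tested genes shifted in the same direction as those of the members. The fewest higher members were found without IFNγ replicate 2 (6) and without unstimulated replicate 1 (7), and the fewest lower ones without unstimulated replicate 2 (2) and unstimulated replicate 1 (3).

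The libraries share only replicate numbers, and deviations of same-numbered libraries correlated at r = 0.428 across genes. With the replicate block, 20 members were higher and 8 lower, and of the other genes 35 were higher and 20 lower. Over all 14820 genes 2596 were then higher and 2892 lower, against 1337 and 1626. All 16 members called without the block passed with it, and 12 more did, among them CDH1 (adjusted p = 0.00994), AFDN (0.00282) and NECTIN1 (0.0262) of the adherens junction. The block with the GC and length removal gave 24 higher and 5 lower members, 32 higher and 17 lower other genes, and a member median of 0.29. Over all 14518 genes of that fit, 2833 were higher and 1836 lower.

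Directions reversed for 9 members, none of which had passed in the analysis as reported. With the GC and length trend removed, alone and with the block, log2 fold changes turned to 0.13 and 0.14 for CLDN12, 0.52 and 0.50 for OCLN, 0.32 and 0.31 for CXADR, 0.13 and 0.14 for CDH17 and 0.12 and 0.13 for DSG2. With the block, these values passed as higher for OCLN (adjusted p = 0.00511) and CXADR (0.0235), while under the block alone CXADR passed as lower (-0.32, adjusted p = 0.0176). OCLN was 0.029 with upper quartile scaling and 0.0045 with no filter. With each library left out in turn, values ran from -0.35 to 0.088 for CLDN15, -0.18 to 0.11 for OCLN, -0.18 to 0.013 for CDH17, -0.10 to 0.24 for EPCAM, -0.051 to 0.15 for CTNNA1 and -0.035 to 0.16 for PARD6B. The cause of these changes was not tested.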
